A study of Mus musculus with 4 samples.

Results

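Receptor chains for interleukins that govern survival and memory of T cells were followed in a pair of sorted mouse CD4 T cell populations. The set is a named list of 10 genes (Il2ra, Il2rb, Il2rg, Il7r, Il15ra, Il4ra, Il21r, Il6ra, Il6st and Il27ra) among the 23284 gene symbols of the deposited tables, and each of the 10 had a single entry. CD4 T cells from spleens of the inbred mouse strain BALB/c were first driven toward the Th1 type, the helper type that makes interferon-gamma, in cultures with 15 ng/ml IL-2 and 10 ng/ml IL-12. One label gives 4 days of culture and another 5 days. A cell sorter separated the cells by surface CCR7 and CD137 into CCR7loCD137hi and CCR7hiCD137lo cells, with 2 libraries of each, and both populations shared strain, tissue and cytokines. CCR7 is the chemokine receptor that directs T cells into lymph nodes. CD137 is a costimulatory molecule found on activated T cells. The series set out to characterise these populations in a study of acetyl-CoA carboxylase 1 and memory potential. No unsorted, unstimulated or in vivo cells are among the 4 libraries.

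IL-2, IL-4, IL-7, IL-15 and IL-21 all signal through receptors that contain the common gamma chain, the product of Il2rg, paired with a chain of their own. IL-2 and IL-15 share the signalling chain encoded by Il2rb, and each has a further high-affinity chain, encoded by Il2ra (CD25) and Il15ra, that binds the cytokine and does not itself signal. IL-6 and IL-27 instead use gp130, the product of Il6st, together with the chains encoded by Il6ra and Il27ra. IL-7 and IL-15 are the cytokines best known for keeping memory T cells alive, whereas CD25 is typical of freshly activated and of regulatory T cells. The chains carry no kinase of their own and signal through JAK kinases and STAT factors.

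Expression is given as FPKM, fragment numbers scaled to both the length of the transcript and the size of the library, so levels may be set side by side between genes. Fold changes are differences of mean log2(FPKM + 1), CCR7loCD137hi minus CCR7hiCD137lo, and understate the change of low genes. Tests are limma's, two-sided, with Benjamini-Hochberg adjustment over all 10496 genes with a mean of at least 1 FPKM and a threshold of 0.05. The labels do not tie a library to a mouse or culture, so the spread behind every p could be technical only. The sort genes followed the labels, with Ccr7 at 39.6 and 38.2 FPKM in CCR7loCD137hi, against 93.4 and 118.4 FPKM in CCR7hiCD137lo, and Tnfrsf9, the CD137 gene, at 158.2 and 183.8 FPKM in CCR7loCD137hi, against 0.961 and 6.25 FPKM in CCR7hiCD137lo. T cell markers were high throughout, with summed levels of 2046 and 2307 FPKM over 10 genes in CCR7loCD137hi and 2043 and 2142 FPKM in CCR7hiCD137lo. Among them Cd4 stood at 95.6 and 175.7 FPKM in CCR7loCD137hi, against 124.5 and 181.9 FPKM in CCR7hiCD137lo, Cd2 at 387.6 and 350.9 FPKM in CCR7loCD137hi, against 291.5 and 321.6 FPKM in CCR7hiCD137lo, and Thy1 at 518.4 and 558.4 FPKM in CCR7loCD137hi, against 485.2 and 455.2 FPKM in CCR7hiCD137lo. Estimated depth was 11600000 and 6280000 fragments in CCR7loCD137hi replicates 1 and 2, and 20500000 and 12900000 in CCR7hiCD137lo replicates 1 and 2. At that depth the receptor genes rest on about 150 (Il15ra) to about 46000 (Il2ra) fragments in a library. The sum of the 10 levels was 1562 and 1305 FPKM in CCR7loCD137hi, against 1472 and 1475 FPKM in CCR7hiCD137lo.

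No receptor chain passed the test between the populations, and most chains overlapped between them. The chains with the clearest separation were Il2rb, higher in both CCR7loCD137hi libraries, and Il6ra and Il2rg, lower in both. Il7r and Il6st had the widest spread of all 10, and for each of them libraries of the same population differed by more than the population means did. Within CCR7loCD137hi the same held for Il2ra, Il15ra, Il4ra, Il21r and Il27ra. Of the 10 chains, 0 were called by limma, against 0.0572% of all genes tested. At an unadjusted p under 0.05 there was 1 chain higher, Il2rb (4.64% of all genes), and 1 lower, Il6ra (3.49% of all genes). The libraries did not overlap for 1 chain on the higher side (16.6% of all genes) and for 2 on the lower side (21.5% of all genes), which is no more than the share over all genes. Of the chains, 3 were fitted above 0, against 47.9% of all genes, and their median log2 fold change was −0.23, beside −0.01 over all genes tested. In bulk RNA, fewer cells carrying a receptor and less receptor RNA per cell cannot be told apart.

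**Figure D1:**
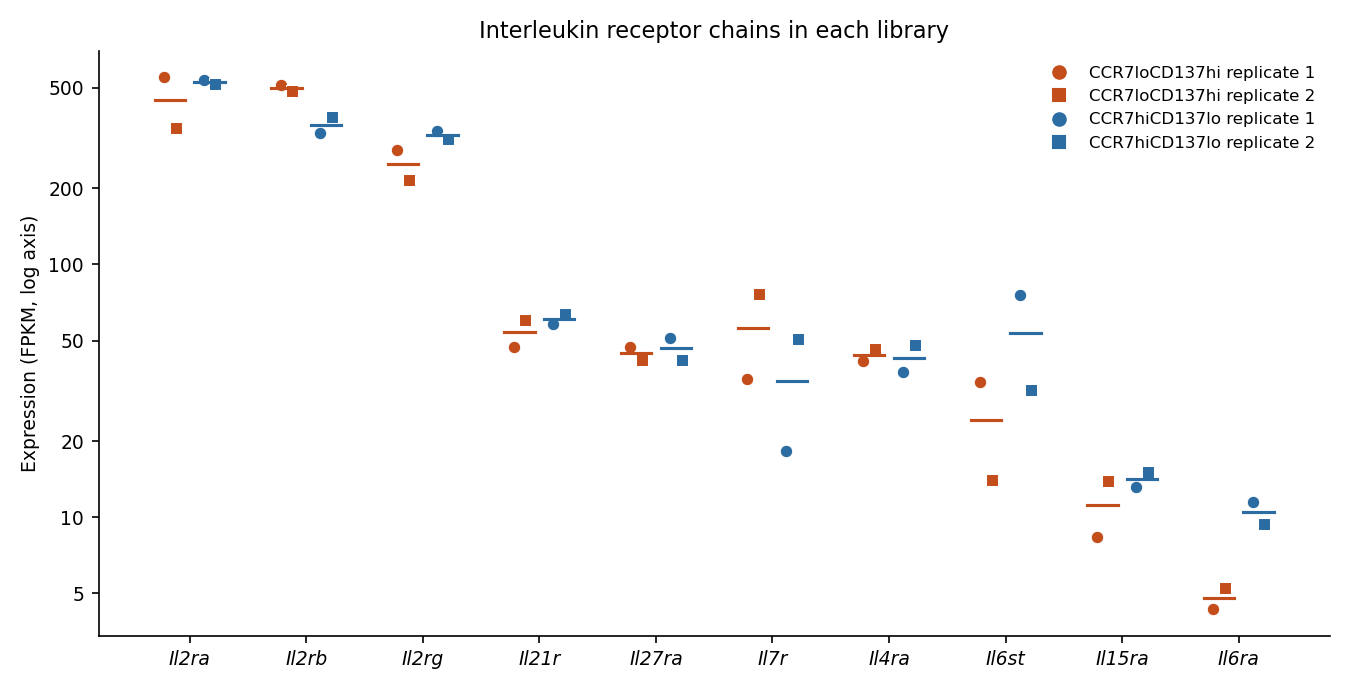
FPKM of the 10 receptor chains on a log axis, in order of mean level, with CCR7loCD137hi in orange and CCR7hiCD137lo in blue; circles are replicate 1, squares replicate 2 and bars the mean of 2 libraries. The 3 chains of the IL-2 receptor lie at 216.1 FPKM or above in every library, and Il2rb, Il2rg and Il6ra are the chains whose populations do not overlap.

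The chains of the IL-2 receptor were by far the most abundant, and the ratios of Il2rb to Il2rg and of Il2ra to Il2rb did not overlap between the populations. Il2ra (mm10 chromosome 2, 11642792 to 11693194, plus strand), the high-affinity alpha chain CD25, stood at 548.8 and 345.5 FPKM in CCR7loCD137hi, against 537.9 and 518.4 FPKM in CCR7hiCD137lo. The populations overlapped, and the single low library was CCR7loCD137hi replicate 2. The means were 447.1 ± 143.8 FPKM in CCR7loCD137hi and 528.1 ± 13.8 FPKM in CCR7hiCD137lo (SD, n = 2 each; log2 fold change −0.28, SE 0.24, limma adjusted p = 0.815). Without CCR7loCD137hi replicate 2 the fold change was 0.06, the opposite sign. At least 98.3% of the genes tested lay at or below Il2ra in each library.

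Il2rb (chromosome 15, 78480549 to 78495066, minus strand), the beta chain that signals for both IL-2 and IL-15, stood at 511.7 and 484.3 FPKM in CCR7loCD137hi, against 331.6 and 381.1 FPKM in CCR7hiCD137lo. The populations did not overlap. The ratio of the means was 1.40 (log2 fold change 0.48, SE 0.13, 95% interval 0.15 to 0.82, limma unadjusted p = 0.0142 and adjusted p = 0.491), so the difference exceeded the spread between replicates but did not pass over all genes. Leaving out any single library kept the sign, with log2 fold changes of 0.38 to 0.58.

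Il2rg (chromosome X, 101264387 to 101268206, minus strand), the common gamma chain, ran the other way, at 284.0 and 216.1 FPKM in CCR7loCD137hi, against 337.5 and 314.4 FPKM in CCR7hiCD137lo. Both CCR7loCD137hi libraries were lower than both others, with a log2 fold change of −0.39 (SE 0.17, 95% interval −0.84 to 0.06, limma adjusted p = 0.656). Without CCR7loCD137hi replicate 2 the difference was −0.20, and without replicate 1 it was −0.59. All of the annotated Il2rg gene also lies within a longer gene model on the same strand, Gm20489, whose reads would not be separable from those of Il2rg.

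Set against each other within a library, Il2rb exceeded Il2rg by ratios of 1.80 and 2.24 in CCR7loCD137hi, whereas the chains were nearly level in CCR7hiCD137lo, with ratios of 0.982 and 1.21. The ratio of Il2ra to Il2rb was 1.07 and 0.713 in CCR7loCD137hi, against 1.62 and 1.36 in CCR7hiCD137lo. Neither ratio overlapped between the populations. The ratios are built from the levels above and are not separate evidence, and with 2 libraries a population the smallest two-sided p of an exact permutation test is 0.333. The ratio of Il2ra to Il2rg overlapped, at 1.93 and 1.60 in CCR7loCD137hi, against 1.59 and 1.65 in CCR7hiCD137lo. Together Il2ra, Il2rb and Il2rg made up 86.1% and 80.2% of the summed level of the 10 chains in CCR7loCD137hi, and 82.0% and 82.3% in CCR7hiCD137lo.

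**Figure D2:**
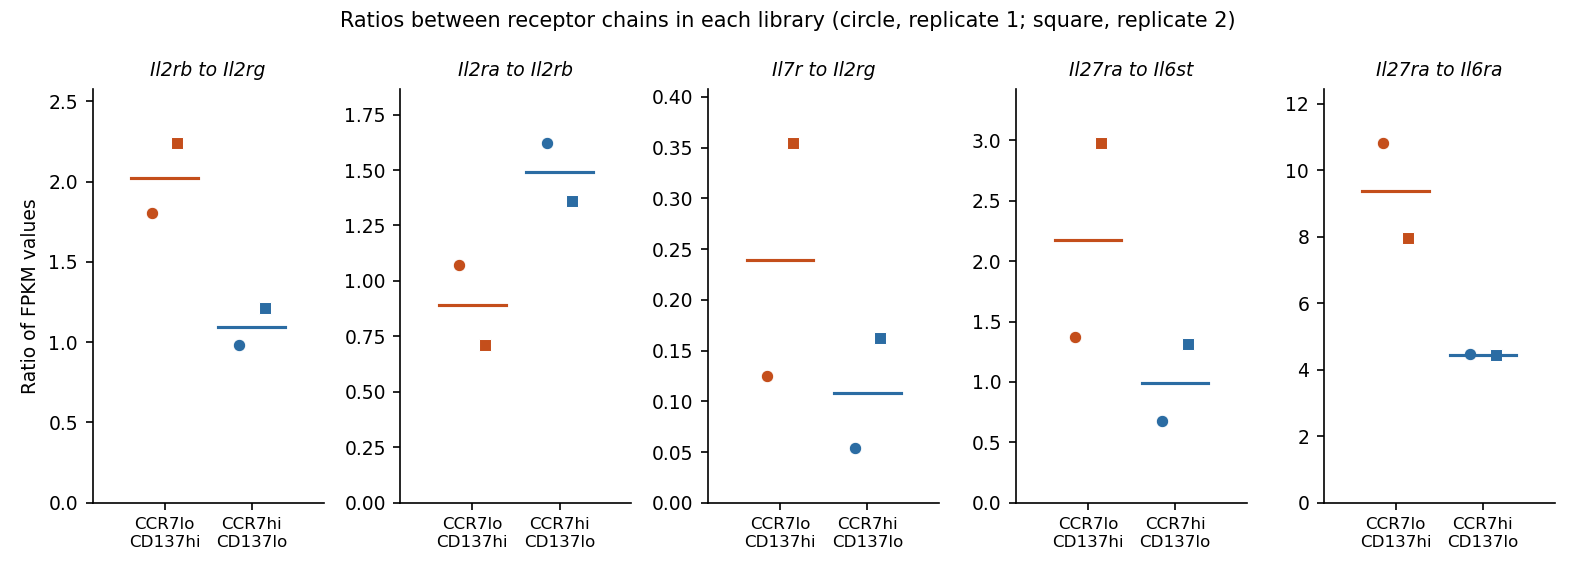
Ratios of FPKM values between pairs of receptor chains in each library, with CCR7loCD137hi (orange) left of CCR7hiCD137lo (blue) in each panel; circles are replicate 1, squares replicate 2 and bars the mean of 2. The Il2rb to Il2rg ratio is at least 1.80 in CCR7loCD137hi and at most 1.21 in CCR7hiCD137lo, whereas the Il7r to Il2rg ratio overlaps between the populations.

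Il15ra (chromosome 2, 11705536 to 11733962, plus strand), the high-affinity chain for IL-15, was among the lowest of the set, at 8.38 and 14.0 FPKM in CCR7loCD137hi, against 13.2 and 15.1 FPKM in CCR7hiCD137lo. The populations overlapped, and the low library was CCR7loCD137hi replicate 1 (log2 fold change −0.36, SE 0.26, limma adjusted p = 0.776). Without that library the fold change was −0.017, and without CCR7loCD137hi replicate 2 it was −0.69. Its level was 0.0164 and 0.0289 of that of Il2rb in CCR7loCD137hi, against 0.0399 and 0.0397 in CCR7hiCD137lo. The gene lies 12341 bases downstream of Il2ra with no protein-coding gene between them. Il15ra stood at 0.0153 and 0.0405 of the level of this neighbour in CCR7loCD137hi, against 0.0246 and 0.0292 in CCR7hiCD137lo. The lowest library was not the same for the pair, since Il2ra was lowest in CCR7loCD137hi replicate 2 and Il15ra in CCR7loCD137hi replicate 1.

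Il7r (chromosome 15, 9506159 to 9529876, minus strand) encodes CD127, the alpha chain for IL-7, which resting and memory T cells carry and which activation lowers. It stood at 35.4 and 76.6 FPKM in CCR7loCD137hi, against 18.3 and 50.9 FPKM in CCR7hiCD137lo. The replicate 2 library was the higher one in both populations, and the populations overlapped, since CCR7loCD137hi replicate 1 lay below CCR7hiCD137lo replicate 2. Between libraries of the same number, Il7r was higher in CCR7loCD137hi both times, though no label says what a number shares. On the log2 scale the replicates differed by 1.09 within CCR7loCD137hi and by 1.43 within CCR7hiCD137lo, against 0.75 between the means. The test gave a log2 fold change of 0.75 (SE 0.61, 95% interval −0.86 to 2.36, limma adjusted p = 0.800). The interval spans differences in both directions, and single left-out libraries moved the value between 0.03 and 1.46. Relative to the common gamma chain, Il7r stood at 0.125 and 0.354 in CCR7loCD137hi, against 0.0543 and 0.162 in CCR7hiCD137lo, so Il2rg exceeded Il7r in every library. Its partners Il2rb, Il7r, Il4ra and Il21r summed to 635.6 and 667.8 FPKM in CCR7loCD137hi, against 445.4 and 543.6 FPKM in CCR7hiCD137lo. These sums were above Il2rg in every library.

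Il4ra (chromosome 7, 125552282 to 125579474, plus strand), which pairs with the gamma chain for IL-4, was level, at 41.3 and 46.3 FPKM in CCR7loCD137hi and 37.4 and 47.9 FPKM in CCR7hiCD137lo. Its log2 fold change was 0.05 (SE 0.17, 95% interval −0.41 to 0.50, limma adjusted p = 0.963), and the sign turned without CCR7loCD137hi replicate 2 (−0.03) or without CCR7hiCD137lo replicate 1 (−0.13). An antisense gene model, Gm44876, shares 1342 bases of its span. Il21r, the specific chain for IL-21, lies 23954 bases further along chromosome 7 (125603429 to 125633570, plus strand), again with no protein-coding gene between them. It stood at 47.2 and 60.5 FPKM in CCR7loCD137hi, against 58.1 and 63.6 FPKM in CCR7hiCD137lo, and the populations overlapped (log2 fold change −0.18, SE 0.17, limma adjusted p = 0.821). Without CCR7loCD137hi replicate 1 the value was −0.0062, and without CCR7loCD137hi replicate 2 it was −0.36. In both populations replicate 2 was the higher library for each of these neighbours. The intervals leave room for differences of up to 0.50 (Il4ra) and 0.62 (Il21r) on the log2 scale in size.

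Among the chains of the gp130 branch, Il6ra and Il6st were lower in CCR7loCD137hi on average, and Il27ra was level. Il6ra (chromosome 3, 89869324 to 89913162, minus strand), the IL-6 binding chain, was the least abundant of the 10, at 4.34 and 5.28 FPKM in CCR7loCD137hi, against 11.5 and 9.45 FPKM in CCR7hiCD137lo. The populations did not overlap, and the mean in CCR7loCD137hi was 0.459 of that in CCR7hiCD137lo. The log2 fold change was −0.98 (SE 0.18, 95% interval −1.45 to −0.51, limma unadjusted p = 0.00357 and adjusted p = 0.347), larger than the differences of 0.23 and 0.26 between replicates of CCR7loCD137hi and CCR7hiCD137lo. It ran from −1.11 to −0.85 when single libraries were left out. An antisense gene model, Gm42809, shares 247 bases of the Il6ra span.

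Il6st (chromosome 13, 112464070 to 112506860, plus strand), the gene for gp130, stood at 34.2 and 14.1 FPKM in CCR7loCD137hi, against 75.6 and 32.0 FPKM in CCR7hiCD137lo. Here the replicate 1 library was the higher one in both populations, the reverse of Il7r, and the populations overlapped, since CCR7loCD137hi replicate 1 lay just above CCR7hiCD137lo replicate 2. Between libraries of the same number, Il6st was lower in CCR7loCD137hi both times. The log2 fold change was −1.12 (SE 0.58, 95% interval −2.67 to 0.42, limma adjusted p = 0.718), beside differences of 1.22 within each population. Without CCR7loCD137hi replicate 2 it was −0.51, and without replicate 1 it was −1.74. Il6st was the chain with the widest range, 5.36-fold from the lowest to the highest library, followed by Il7r at 4.18-fold.

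Il27ra (chromosome 8, 84030286 to 84042575, minus strand), the IL-27 binding partner of gp130, stood at 46.9 and 42.0 FPKM in CCR7loCD137hi, against 51.3 and 42.0 FPKM in CCR7hiCD137lo (log2 fold change −0.06, SE 0.16, 95% interval −0.48 to 0.35, limma adjusted p = 0.945). Without CCR7loCD137hi replicate 2 or CCR7hiCD137lo replicate 1 the value was 0.02 or 0.08. It had the narrowest range of the set, at 1.22-fold, and shares 10 bases of its span with Palm3 on the other strand, which reached at most 1.89 FPKM. Its ratio to Il6ra was 10.8 and 7.96 in CCR7loCD137hi, against 4.46 and 4.44 in CCR7hiCD137lo, and its ratio to Il6st was 1.37 and 2.98 in CCR7loCD137hi, against 0.679 and 1.31 in CCR7hiCD137lo. Neither ratio overlapped. The 3 chains of this branch made up 5.47% and 4.70% of the summed level of the set in CCR7loCD137hi, and 9.40% and 5.66% in CCR7hiCD137lo.

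**Figure D3:**
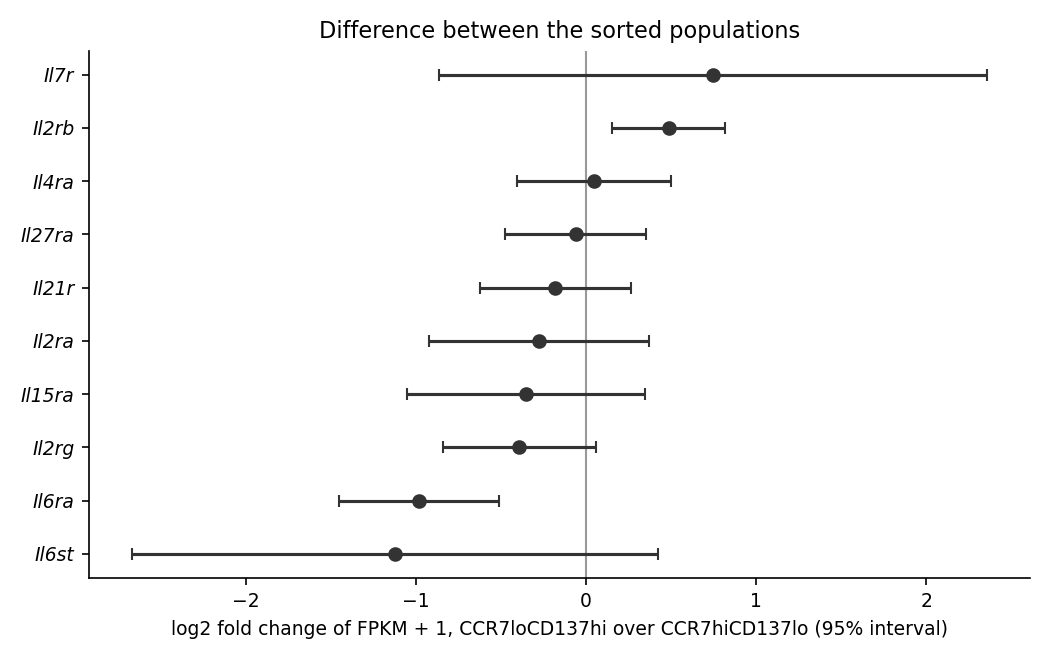
Log2 fold change of FPKM + 1 for each receptor chain, CCR7loCD137hi over CCR7hiCD137lo, from limma over all genes; points are estimates and bars 95% intervals not adjusted for the number of genes. The intervals of Il2rb (0.15 to 0.82) and Il6ra (−1.45 to −0.51) do not hold 0, and those of Il7r and Il6st are the widest.

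Ordered by the mean over the 4 libraries, the chains ran Il2ra, Il2rb, Il2rg, Il21r, Il27ra, Il7r, Il4ra, Il6st, Il15ra and Il6ra. Among neighbours in this order, only Il2rg and Il21r, with means of 288.0 and 57.4 FPKM, had ranges over the libraries that did not overlap. Il15ra and Il6ra held the last places of the 10 in every library. The order in the middle shifted between libraries, with Il7r in position 7 and 4 in CCR7loCD137hi replicates 1 and 2, against 8 and 5 in CCR7hiCD137lo replicates 1 and 2.

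Sequence just upstream of the annotated start was read for the chains, and is shown for those whose populations did not overlap (Il2rg and Il6ra; Il2rb has no entry in the promoter table) and for those that varied most between libraries (Il7r and Il6st). Each is 250 bases, 5′ to 3′ on the strand of the gene, from RefSeq on GRCm38.p6 (the assembly of mm10), and capitals mark matches to TTCNNNGAA (the core form bound by STAT factors), CCGGAAG (ETS factors) or GTAAACA (FOXO factors) on either strand.
Il2rg, chrX:101268256-101268505, minus strand: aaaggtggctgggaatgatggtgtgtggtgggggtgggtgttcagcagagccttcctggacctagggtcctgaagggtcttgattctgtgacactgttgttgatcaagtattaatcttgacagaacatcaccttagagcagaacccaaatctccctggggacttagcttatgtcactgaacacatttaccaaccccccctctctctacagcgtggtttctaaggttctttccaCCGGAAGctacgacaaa
Il6ra, chr3:89913197-89913446, minus strand: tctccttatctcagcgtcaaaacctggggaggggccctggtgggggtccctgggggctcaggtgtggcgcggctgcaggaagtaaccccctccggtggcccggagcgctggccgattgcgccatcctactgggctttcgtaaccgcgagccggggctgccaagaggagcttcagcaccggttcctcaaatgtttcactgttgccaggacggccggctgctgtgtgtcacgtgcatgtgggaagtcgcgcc
Il7r, chr15:9529877-9530126, minus strand: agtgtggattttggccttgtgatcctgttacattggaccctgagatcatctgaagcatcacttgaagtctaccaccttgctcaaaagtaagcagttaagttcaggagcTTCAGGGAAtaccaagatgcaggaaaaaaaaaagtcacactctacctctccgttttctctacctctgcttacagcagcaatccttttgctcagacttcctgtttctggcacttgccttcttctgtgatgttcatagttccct
Il6st, chr13:112463820-112464069, plus strand: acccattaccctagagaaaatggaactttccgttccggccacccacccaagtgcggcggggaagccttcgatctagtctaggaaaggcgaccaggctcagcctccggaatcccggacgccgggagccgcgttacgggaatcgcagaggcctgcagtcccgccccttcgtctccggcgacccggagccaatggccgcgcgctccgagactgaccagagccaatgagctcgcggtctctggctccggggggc
The Il2rg window held the ETS form, beginning 17 bases before the start, and the Il7r window held the STAT form, beginning 142 bases before the start. The Il6ra and Il6st windows held none of the 3 forms. Over all 32851 windows of the same length, 7.02% held the STAT form, 6.91% the ETS form and 3.17% the FOXO form. A match is only a run of letters, and nothing about binding was measured. Of the 10 chains 8 had an entry, and among those not shown, Il21r held the FOXO form and 1 of the Il15ra windows the ETS form.

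Around the receptors, no gene of the ligand, kinase, target or regulator lists passed limma's test over all genes either. Among ligands, Il2 reached at most 0.457 FPKM in any library, in cultures that had been given IL-2. Il6 and Il7 reached at most 0.0869 and 0.0377 FPKM, and Il15 and Il27 were listed at 0 in all. Of 16 ligand genes 7 had a mean of at least 1 FPKM and were tested, and 0 were called. Il13 and Il9 reached that mean only through CCR7loCD137hi, where they are high, so no count by direction and no median over the tested ligands is given. Il13, a Th2 cytokine whose receptor uses the Il4ra chain, stood at 8.81 and 5.83 FPKM in CCR7loCD137hi, against 0.0483 and 0.153 FPKM in CCR7hiCD137lo (log2 fold change 2.90, SE 0.26, limma adjusted p = 0.116). Il4, the ligand of the same chain, stood at 3.51 and 7.59 FPKM in CCR7loCD137hi, against 0.127 and 1.92 FPKM in CCR7hiCD137lo (limma adjusted p = 0.572). Lif, an IL-6 family cytokine that signals through gp130, stood at 96.5 and 53.8 FPKM in CCR7loCD137hi, against 139.8 and 153.9 FPKM in CCR7hiCD137lo (limma adjusted p = 0.537). Osm, another gp130 ligand, stood at 78.9 and 64.9 FPKM in CCR7loCD137hi, against 86.0 and 83.0 FPKM in CCR7hiCD137lo. The chains that pair with gp130 for these ligands, Lifr and Osmr, reached at most 0.0549 and 0.0331 FPKM.

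Of 10 kinase and STAT genes 0 were called. At an unadjusted limma p under 0.05, 0 were higher (4.64% of all genes) and 2 lower (3.49% of all genes). The list's median log2 fold change was 0.01, beside −0.01 over all genes. Jak2, a kinase that associates with gp130, stood at 16.1 and 16.3 FPKM in CCR7loCD137hi, against 22.0 and 23.7 FPKM in CCR7hiCD137lo (limma adjusted p = 0.501). Jak3, the kinase bound to the common gamma chain, overlapped, at 76.9 and 115.7 FPKM in CCR7loCD137hi, against 64.7 and 97.1 FPKM in CCR7hiCD137lo. Stat5a stood at 19.3 and 18.5 FPKM in CCR7loCD137hi, against 20.1 and 22.2 FPKM in CCR7hiCD137lo, and Stat5b at 26.2 and 33.7 FPKM in CCR7loCD137hi, against 26.8 and 34.8 FPKM in CCR7hiCD137lo. Both encode the factors that act for IL-2, IL-7 and IL-15, and both were named after their values were seen.

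Among 13 STAT5 targets and feedback genes 0 were called, and the median log2 fold change was 0.10. At an unadjusted limma p under 0.05, 1 was higher (4.64% of all genes) and 1 lower (3.49% of all genes). Prdm1, which encodes the effector factor Blimp-1, stood at 6.03 and 12.9 FPKM in CCR7loCD137hi, against 0.430 and 2.23 FPKM in CCR7hiCD137lo (log2 fold change 2.20, SE 0.53, limma adjusted p = 0.468). The kinase genes Pim1 and Pim2 overlapped, at 243.8 and 292.7 FPKM and at 384.5 and 299.3 FPKM in CCR7loCD137hi, against 229.0 and 271.6 FPKM and 366.1 and 272.6 FPKM in CCR7hiCD137lo. Myc, which encodes a transcription factor, overlapped as well, at 116.5 and 157.7 FPKM in CCR7loCD137hi, against 81.5 and 121.6 FPKM in CCR7hiCD137lo.

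Of 10 genes for regulators linked to Il7r transcription 0 were called, with a median log2 fold change of −0.16. At an unadjusted limma p under 0.05, 0 were higher (4.64% of all genes) and 2 lower (3.49% of all genes). Tcf7, which encodes the memory-associated factor TCF-1, stood at 18.1 and 15.4 FPKM in CCR7loCD137hi, against 71.1 and 61.6 FPKM in CCR7hiCD137lo (log2 fold change −1.93, SE 0.15, limma adjusted p = 0.0876). Gfi1, a repressor of Il7r in T cells, stood at 8.83 and 12.1 FPKM in CCR7loCD137hi, against 3.24 and 7.90 FPKM in CCR7hiCD137lo (limma adjusted p = 0.680). Ets1 overlapped, at 101.7 and 139.9 FPKM in CCR7loCD137hi, against 117.8 and 148.0 FPKM in CCR7hiCD137lo. Runx3 stood at 51.8 and 58.0 FPKM in CCR7loCD137hi, against 45.1 and 50.4 FPKM in CCR7hiCD137lo. Foxp1 stood at 15.4 and 14.7 FPKM in CCR7loCD137hi, against 26.9 and 27.5 FPKM in CCR7hiCD137lo (log2 fold change −0.81, limma adjusted p = 0.296), and was named after its values were seen. The libraries did not overlap for 2 of the 10 regulators on the higher side (Gfi1 and Runx3; 16.6% of all genes) and for 4 on the lower side (Tcf7, Foxp1, Foxo1 and Gabpa; 21.5% of all genes).

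Of 23 other cytokine receptors 18 were tested and 0 were called. Ifngr1 and Il12rb1 were higher at an unadjusted limma p under 0.05, as were 4.64% of all genes. Il1rl1, Il1r2 and Ifngr2 passed the filter on low values only through CCR7loCD137hi, so no count by direction is given. Ifngr1, the ligand-binding chain for interferon-gamma, stood at 77.0 and 78.2 FPKM in CCR7loCD137hi, against 33.1 and 39.5 FPKM in CCR7hiCD137lo (log2 fold change 1.08, SE 0.14, limma adjusted p = 0.243). Il1rl1, the IL-33 receptor, stood at 10.0 and 3.46 FPKM in CCR7loCD137hi, against 0.486 and 0.415 FPKM in CCR7hiCD137lo (limma adjusted p = 0.405). Il1r2, a decoy receptor for IL-1, stood at 3.16 and 0.554 FPKM in CCR7loCD137hi, against 0 and 0.336 FPKM in CCR7hiCD137lo. Il18r1, an IL-18 receptor chain, stood at 80.5 and 77.6 FPKM in CCR7loCD137hi, against 94.1 and 103.1 FPKM in CCR7hiCD137lo. Of the other partners of the shared chains, the only 2 of 8 that were tested overlapped, Crlf2 at 12.1 and 12.3 FPKM in CCR7loCD137hi, against 12.7 and 9.49 FPKM in CCR7hiCD137lo, and Il12rb2 at 45.7 and 53.1 FPKM in CCR7loCD137hi, against 21.5 and 46.2 FPKM in CCR7hiCD137lo.

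**Figure D4:**
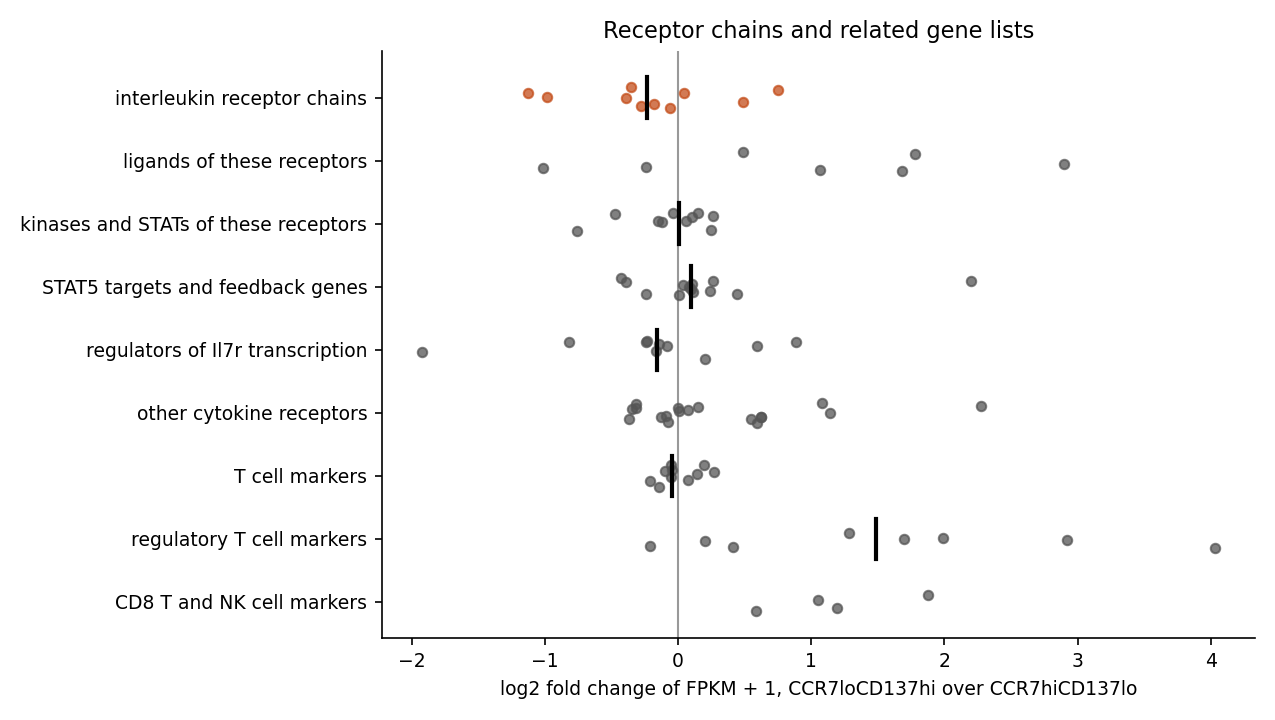
Log2 fold change of FPKM + 1, CCR7loCD137hi over CCR7hiCD137lo, for every tested gene of the receptor set (orange) and of related lists (grey); vertical bars are medians of the lists whose genes were all tested, and vertical scatter has no meaning. The receptor chains have a median of −0.23, and kinases and STATs lie close to 0 with a median of 0.01. The bar of the regulatory T cell markers rests in part on Foxp3, Ikzf2 and Itgae. These passed the filter on low values only through CCR7loCD137hi, so that bar is not comparable with the others.

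CD25 and CD127 are also the surface markers by which regulatory T cells are told apart, so other markers of that lineage were read. Foxp3, its lineage factor, stood at 47.9 and 11.0 FPKM in CCR7loCD137hi, against 0.853 and 0.181 FPKM in CCR7hiCD137lo (limma adjusted p = 0.346). Of 8 regulatory T cell markers 0 were called. Foxp3, Ikzf2 and Itgae reached a mean of 1 FPKM only through CCR7loCD137hi, where they are high, so no count by direction is given. Ctla4, Capg and Lrrc32 were higher without overlap (16.6% of all genes), and Nrp1 and Gpr83 overlapped. The summed level of the 8 was 402.7 and 302.4 FPKM in CCR7loCD137hi, against 189.3 and 197.4 FPKM in CCR7hiCD137lo. Ikzf2 stood at 12.9 and 5.94 FPKM in CCR7loCD137hi, against 0.204 and 0.399 FPKM in CCR7hiCD137lo, Ctla4 at 138.7 and 70.0 FPKM in CCR7loCD137hi, against 37.5 and 23.5 FPKM in CCR7hiCD137lo, and Capg at 152.5 and 178.4 FPKM in CCR7loCD137hi, against 136.2 and 150.3 FPKM in CCR7hiCD137lo. The library with the most Foxp3, CCR7loCD137hi replicate 1, had more Il2ra (548.8 FPKM) and less Il7r (35.4 FPKM) than CCR7loCD137hi replicate 2 (345.5 and 76.6 FPKM). In CCR7hiCD137lo, where Foxp3 was under 1 FPKM, Il2ra was about as high, at 537.9 and 518.4 FPKM, and replicate 1 had the lowest Il7r of all 4 libraries, at 18.3 FPKM. The part of such cells in the receptor levels was not tested. CD8 T and NK cells also carry the beta chain encoded by Il2rb. Their markers summed to 65.9 and 54.4 FPKM over 7 genes in CCR7loCD137hi, against 17.0 and 33.1 FPKM in CCR7hiCD137lo. Of these, Klrd1 stood at 8.55 and 5.97 FPKM in CCR7loCD137hi, against 0.658 and 1.97 FPKM in CCR7hiCD137lo, Klrk1 at 16.5 and 15.5 FPKM in CCR7loCD137hi, against 4.29 and 9.38 FPKM in CCR7hiCD137lo, and Eomes at 26.5 and 28.5 FPKM in CCR7loCD137hi, against 9.42 and 17.2 FPKM in CCR7hiCD137lo, and their part in the level of Il2rb was not tested. Cd8b1 overlapped, at 8.48 and 3.78 FPKM in CCR7loCD137hi, against 2.63 and 4.56 FPKM in CCR7hiCD137lo. Cd8a and Ncr1, which define those cells, stood at 3.68 and 1.91 FPKM in CCR7loCD137hi replicate 1. In CCR7loCD137hi replicate 2 they stood at 0.218 and 0.251 FPKM. In CCR7hiCD137lo Cd8a was at most 0.0265 FPKM, and Ncr1 was listed at 0 in both libraries. B cell markers summed to 5.36 and 0.571 FPKM in CCR7loCD137hi and to 0.117 and 0.186 FPKM in CCR7hiCD137lo, and myeloid markers to at most 0.846 FPKM in any library, with Csf1r and Flt3 listed at 0 in all.

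The patterns most like those of Il7r and Il2rb were sought among 5899 other genes with a mean of at least 10 FPKM, by the root mean square difference of centred log2(FPKM + 1) over the 4 libraries. Closest to Il7r were Plcxd1 (0.0443), Chd7 (0.0902) and 1110018J18Rik (0.0951). Chd7 stood at 21.7 and 47.8 FPKM in CCR7loCD137hi, against 12.0 and 28.2 FPKM in CCR7hiCD137lo, with replicate 2 higher in both as for Il7r. Closest to Il2rb were Birc3 (0.0175), Gm7334 (0.0278) and Fam96b (0.0280). Birc3, an inhibitor of apoptosis gene, stood at 24.2 and 23.1 FPKM in CCR7loCD137hi, against 15.0 and 17.8 FPKM in CCR7hiCD137lo. With 4 libraries many genes can be close to any pattern, and no test was made of the likeness. Within the set, the closest pair was Il2ra and Il2rg (0.114).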

How the data were processed

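RNA of 4 libraries was measured by sequencing. The FPKM values were computed by the authors. They come as a table of genes for each library, in the layout of Cufflinks per the file headers. Bowtie 0.12.8, TopHat 1.3.2, Cufflinks 2.0.2 and mm10 are named in the submitters' processing notes, without roles. Per the labels' protocols, RNA was taken with TRIzol and libraries with a stranded mRNA kit. For annotation, scaling between libraries and use of strand, no statement was given in the sources used here.

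Tables held 23746 entries for 23284 symbols, and where a symbol repeated (240 symbols) the entry with the highest mean was used. Starts were raised by 1, which met the RefSeq start for 11554 symbols, against 695 as deposited. Genes with a mean of at least 1 FPKM (10496) were put on the scale log2(FPKM + 1) and fitted by limma (version 3.58.1, R 4.3.3) with a variance trend and no term for replicate number (2 residual and 2.54 prior degrees of freedom). The procedure was tested on simulated data with independent noise and planted changes larger than that of any receptor chain. That test therefore does not cover changes of the size seen here. Intervals are 95% intervals of limma. Python 3.11.15, numpy 2.4.6, pandas 2.3.3 and matplotlib 3.10.9 made tables and plots.

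Depth is not stated. Relative depths of 0.564, 0.306 and 0.631 of CCR7hiCD137lo replicate 1 (CCR7loCD137hi replicates 1 and 2 and CCR7hiCD137lo replicate 2) placed 75.5%, 74.2% and 75.1% of ratios between values under 0.3 FPKM within 0.002 (natural log) of ratios of whole reads. Absolute depth was set at the smallest value that put many low values of 99 genes with 1 exon (51.2%, against a median of 8.3% over the depths tried) within 0.05 of whole fragments, if fragments span 200 bases. It is rough, since its whole multiples would serve as well. On a transcript of 1 kb, 3 fragments would be worth 0.259 and 0.477 FPKM in CCR7loCD137hi replicates 1 and 2 and 0.146 and 0.232 FPKM in CCR7hiCD137lo replicates 1 and 2, which accounts for counting error alone.

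The labels gave each library's population and number. No value above 0 was shared by any pair of libraries among genes of the tables. The receptor set and the gene lists were chosen with earlier results of these data known. All 10 chains are named. In other lists the rule named called genes, or, with fewer than 2, the 2 most abundant and the 2 with the largest change. For Il7r and Il2rb it named the 3 most similar genes. The values of 1 gene that the rule named are not reported here. Genes named outside the rule were chosen after their values were seen. These are Lifr, Osmr, Il2, Il6, Il7, Il15, Il27, Il9, Il9r, Il12rb1, Ifngr2, Foxo1, Gabpa, Nrp1, Gpr83, Itgae, Lrrc32, Cd8a, Cd8b1, Ncr1, Csf1r and Flt3, beside those said to be so in the text. Promoter windows came from RefSeq on GRCm38.p6, and gene models and strands from GENCODE M21. The motifs were chosen after the windows had been seen. Alternatives were another pseudocount, other filters, scalings and variance models, summed entries, a replicate block and each library left out.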

Additional observations from a re-analysis of the deposited data

How the results depend on the processing

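No receptor chain was called under any alternative except the replicate block. With 2 pairs the replicate numbers cannot be shown to pair the libraries, and no label says what a number shares. The deviations of same-numbered libraries from their population means correlated across 10496 genes (r = 0.214). The median absolute log2 difference between same-numbered libraries of the populations was 0.177 (replicate 1) and 0.185 (replicate 2). Between replicates it was 0.239 within CCR7loCD137hi and 0.19 within CCR7hiCD137lo. With the replicate number as a block, 42 genes were called by limma in place of 6. Among them were 1 receptor chain, Il6st (log2 fold change −1.12, limma adjusted p = 0.0499), and 3 genes of the related lists. These were Prdm1, Tcf7 and Ctla4 (limma adjusted p = 0.0445, 0.0377 and 0.0471). The block lowered the SE of Il6st from 0.584 to 0.0814 and that of Il7r, which was not called, from 0.607 to 0.116. Over all genes the calls numbered 1 with no filter, 2 with quantile normalization and 2 with no variance trend, and ran from 12 to 30 when single libraries were left out. In those fits, which assume that the lone library of a population varies like the other population, calls in the related lists ran from 0 to 1. They were Tnfrsf9 without CCR7hiCD137lo replicate 1 or replicate 2 and Foxp3 without CCR7loCD137hi replicate 2. The direction turned only in left-out fits, for Il2ra (−0.611 to 0.0556), Il4ra (−0.129 to 0.221) and Il27ra (−0.204 to 0.0790). The cause of these changes was not tested. Quantile normalization and median centring turned no chain's direction. Depth limits Il15ra most, which rests on about 150 to 470 fragments a library.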

Other observations

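Il9, whose receptor also uses the common gamma chain, stood at 11.6 FPKM in CCR7loCD137hi replicate 1 and was listed at 0 in CCR7loCD137hi replicate 2, against 0 and 0.232 FPKM in CCR7hiCD137lo. It was chosen after its values were seen, and its receptor gene, Il9r, stood at 0.119 and 0.219 FPKM in CCR7loCD137hi, against 0 and 0.0266 FPKM in CCR7hiCD137lo.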
